A study of Arabidopsis thaliana with 10 samples.

Results

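Helitrons are DNA transposons of plants and animals, and 40 of the 375 transposable element (TE) families counted in Arabidopsis thaliana endosperm carry their names. The 40 families were chosen by name alone, as every family called ATREP or HELITRON at the start of its name, and comprise 27 ATREP, 8 HELITRONY and 5 families called HELITRON1 to HELITRON5. The rule itself uses no measured value, but it was set with earlier results of these data known. The files give no superfamily against which the names could be checked.

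RNA was sequenced from endosperm, the tissue that nourishes the embryo, dissected by hand from seeds of crosses between several plants. In lethal paternal excess a Ler mother was pollinated by a wild-type 4N (tetraploid) Col father, and in viable paternal excess the 4N Col father was an nrpd1 mutant, so both groups share the Ler mother and the tetraploid Col father. Each of these groups had 3 replicates in 5 samples, collected 7 days after pollination apart from 1 sample of lethal replicate 1 at 8 days, whereas the design text of the series gives 6 days. Balanced endosperm came from other series as 5 replicates pooled by the authors, the sources used here do not give its cross, and series, library batch and ploidy cannot be told apart in any comparison with it. The labels name the nrpd1 mutation for the father alone, and none for the Ler mother of either cross.

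Helitrons move through a rolling-circle intermediate, with a Rep/helicase protein encoded by autonomous copies and supplied to the many shorter copies that encode none. In Arabidopsis most ATREP families are of the short, non-autonomous kind, and they often lie close to genes. RNA-directed DNA methylation, in which RNA polymerase IV (with NRPD1 as its largest subunit) starts the small RNAs that guide methylation, acts on such short elements near genes, while DDM1, MET1 and the chromomethylases also silence transposons. In endosperm the central-cell demethylase DME removes methylation from maternal copies of many such elements, and Helitrons beside genes are known from imprinted loci.

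The authors' TE tables hold 1 read count per family and group, summed over replicates, so no spread between replicates could be had for any family and no test was made here. All intervals on family values are 95% exact intervals of counting error only. TE reads numbered 56256 (balanced), 196321 (lethal) and 183539 (viable), or 541, 521 and 580 per 1000000 reads of the same tables. Per 1000000 reads assigned to an allele of a gene, the only gene total at hand, the same TE reads came to 4729, 8628 and 9826. Such allele reads numbered 11895484, 22754013 and 18679143, beside 103951803, 376786993 and 316054977 reads outside the TE families. They were thus a larger part of the reads in balanced endosperm than in the other groups, and the denominator bears on every comparison with balanced. No family was listed below 3 reads in any group, and 60, 4 and 7 of the 375 families stood at exactly 3, so a value of 3 may stand for fewer reads.

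Helitron families took 1114 of the TE reads in balanced endosperm (1.98%, interval 1.87 to 2.10), 7100 in lethal (3.62%, 3.53 to 3.70) and 6752 in viable (3.68%, 3.59 to 3.77). Their share was therefore 1.83 times the balanced share in lethal endosperm (interval 1.71 to 1.95) and 1.86 times in viable endosperm (1.74 to 1.98). Between the paternal-excess groups the ratio was 1.02, viable over lethal, with an interval of 0.984 to 1.05 that includes 1. In bulk tissue, fewer cells of a type and less RNA per cell cannot be told apart in any of these shares.

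The names split the gain unevenly (a split made after the values had been seen). ATREP families held 0.478% of TE reads (balanced), 1.66% (lethal) and 1.84% (viable), 3.47 (3.06 to 3.94) and 3.85 times (3.40 to 4.38) the balanced share. HELITRON1 to HELITRON5 held 1.03%, 1.25% and 1.22%, which is 1.21 (1.11 to 1.33) and 1.19 times (1.09 to 1.31) the balanced share. HELITRONY families held 0.476%, 0.713% and 0.613%, or 1.5 (1.31 to 1.71) and 1.29 times (1.13 to 1.48) the balanced share. Scaled by allele reads of genes, all of these ratios were larger, 6.33 and 8.01 for ATREP, 2.22 and 2.48 for HELITRON1 to HELITRON5, and 2.73 and 2.68 for HELITRONY families. ATREP families thus made up 24.1% of Helitron reads in balanced endosperm (21.7 to 26.8), 45.9% in lethal (44.7 to 47.0) and 50.1% in viable (48.9 to 51.3), and HELITRON1 to HELITRON5 went from 51.8% to 34.4% and 33.2%.

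**Figure D1:**
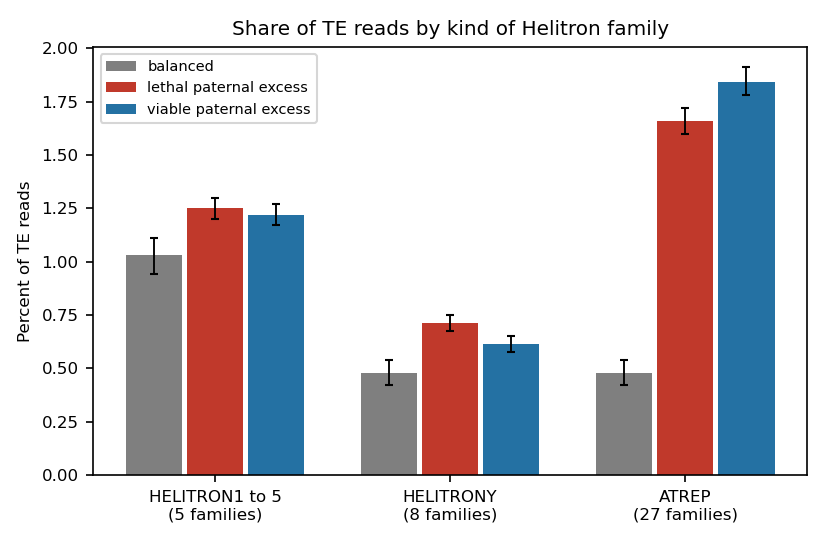
Percent of all TE reads taken by HELITRON1 to HELITRON5, HELITRONY and ATREP families in the 3 groups; bars are pooled values and error bars 95% exact intervals of counting error. The ATREP bars stand at 0.478% (balanced), 1.66% (lethal) and 1.84% (viable), while the other sets differ less between groups.

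HELITRON1 was the most read Helitron family in every group, with 440 reads (balanced), 1631 (lethal) and 1602 (viable). Per 10000 TE reads, the scale used for levels from here on, these were 78.2, 83.1 and 87.3, and HELITRON1 ranked 24 among the 375 families in each group. The lethal level was 1.06 times the balanced one (0.955 to 1.18) and the viable level 1.12 times (1 to 1.24), the smallest differences from balanced among the 5 HELITRON families. HELITRON1 alone supplied 39.5% of Helitron reads in balanced endosperm and 23.0% and 23.7% in lethal and viable endosperm, so the sum over the other 39 families moved more than the total. Without HELITRON1 the Helitron share was 2.33 times the balanced share in lethal and 2.34 times in viable endosperm.

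HELITRON4 stood at 5.87 (balanced), 12.2 (lethal) and 10.8 (viable), from 33, 239 and 199 reads. It was 2.08 times (1.44 to 3.08) the balanced level in lethal and 1.85 times (1.27 to 2.76) in viable endosperm. HELITRON3, with 12, 95 and 68 reads, was 2.27 times (1.24 to 4.54) the balanced level in lethal endosperm and 1.74 times (0.933 to 3.53) in viable endosperm. HELITRON2 had 42, 213 and 167 reads and HELITRON5 50, 267 and 207, and both were 1.22 to 1.53 times the balanced level. All 5 were thus at or above the balanced level in both paternal-excess groups. All but HELITRON1, 4 of the 5, were lower in viable than in lethal endosperm on the scale of TE reads (HELITRON4 was not when scaled by allele reads of genes). The intervals of viable over lethal included 1 for HELITRON2 (0.681 to 1.03), HELITRON3 (0.552 to 1.06) and HELITRON4 (0.734 to 1.08). That of HELITRON5 ended at 0.998.

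The HELITRONY families, further Helitron families with their own consensus sequences, ran from well-read ones that differed little from balanced to thinly read ones that differed more. HELITRONY1C had 79 reads (balanced), 346 (lethal) and 308 (viable) (14.0, 17.6 and 16.8 per 10000), HELITRONY1B had 76, 334 and 269 (13.5, 17.0 and 14.7), and HELITRONY1D had 49, 196 and 141 (8.71, 9.98 and 7.68). Their lethal levels were 1.26, 1.26 and 1.15 times the balanced ones with intervals that included 1, and HELITRONY1D was the only member with enough reads that stood below balanced in viable endosperm (0.882, 0.633 to 1.25), a direction that turned with allele reads of genes as the scale. HELITRONY1A and HELITRONY1E, each listed at 3 reads in balanced endosperm, had 71 and 43 reads and 49 and 51 reads in lethal and viable endosperm. HELITRONY1A was 6.78 times (2.23 to 33.7) the balanced level in lethal and 4.39 times (1.41 to 22.1) in viable endosperm, and HELITRONY1E 4.68 (1.51 to 23.5) and 5.21 times (1.69 to 26.1).

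HELITRONY3 had 11, 130 and 150 reads and was 3.39 times (1.83 to 6.95) and 4.18 times (2.27 to 8.55) the balanced level, while HELITRONY3A, with 8, 44 and 27 reads, was 1.58 and 1.03 times that level with intervals that included 1. HELITRONY2 had 39, 229 and 137 reads, or 6.93, 11.7 and 7.46 per 10000. It stood apart from balanced in lethal endosperm (1.68 times, 1.19 to 2.43) and had an interval that included 1 in viable endosperm (1.08 times, 0.750 to 1.58).

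ATREP5 and ATREP2 were the most read ATREP families and together held 45.0%, 54.6% and 48.9% of ATREP reads in balanced, lethal and viable endosperm. ATREP5 had 84 reads (balanced), 927 (lethal) and 936 (viable) (14.9, 47.2 and 51.0 per 10000), 3.16 times (2.53 to 4.00) and 3.42 times (2.73 to 4.32) the balanced level. ATREP2 had 37, 852 and 719 reads (6.58, 43.4 and 39.2), 6.60 times (4.75 to 9.44) and 5.96 times (4.28 to 8.53) the balanced level. In rank among the 375 families ATREP2 stood at 106 (balanced), 44 (lethal) and 49 (viable), and ATREP5 at 57, 43 and 35. ATREP3, next in reads, had 19, 243 and 232 and was 3.66 (2.30 to 6.19) and 3.74 times (2.34 to 6.33) the balanced level. In all 3 families both paternal-excess levels lay above balanced with intervals clear of 1, and the intervals of the 2 ratios overlapped.

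Ratios larger than these came from families with few balanced reads. ATREP7 had 5 reads (balanced), 157 (lethal) and 154 (viable), 9.00 (3.77 to 28.1) and 9.44 times (3.96 to 29.5) the balanced level. ATREP10D had 4, 123 and 212 reads, 8.81 (3.36 to 32.9) and 16.2 times (6.25 to 60.2), and moved from rank 292 in balanced to 135 in lethal and 89 in viable endosperm. ATREP13 and ATREP16 were listed at 3 reads in balanced endosperm. ATREP13 had 94 reads in lethal and 63 in viable endosperm, 8.98 (2.98 to 44.3) and 6.44 times (2.10 to 32.0) the balanced level. ATREP16 had 71 and 183 reads, 6.78 (2.23 to 33.7) and 18.7 times (6.30 to 91.5). ATREP10, with 4, 66 and 93 reads, was 4.73 (1.76 to 17.9) and 7.13 times (2.69 to 26.7) the balanced level. The lower ends of these intervals were at 1.76 or more in each, and 3 to 5 balanced reads set each ratio.

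**Figure D2:**
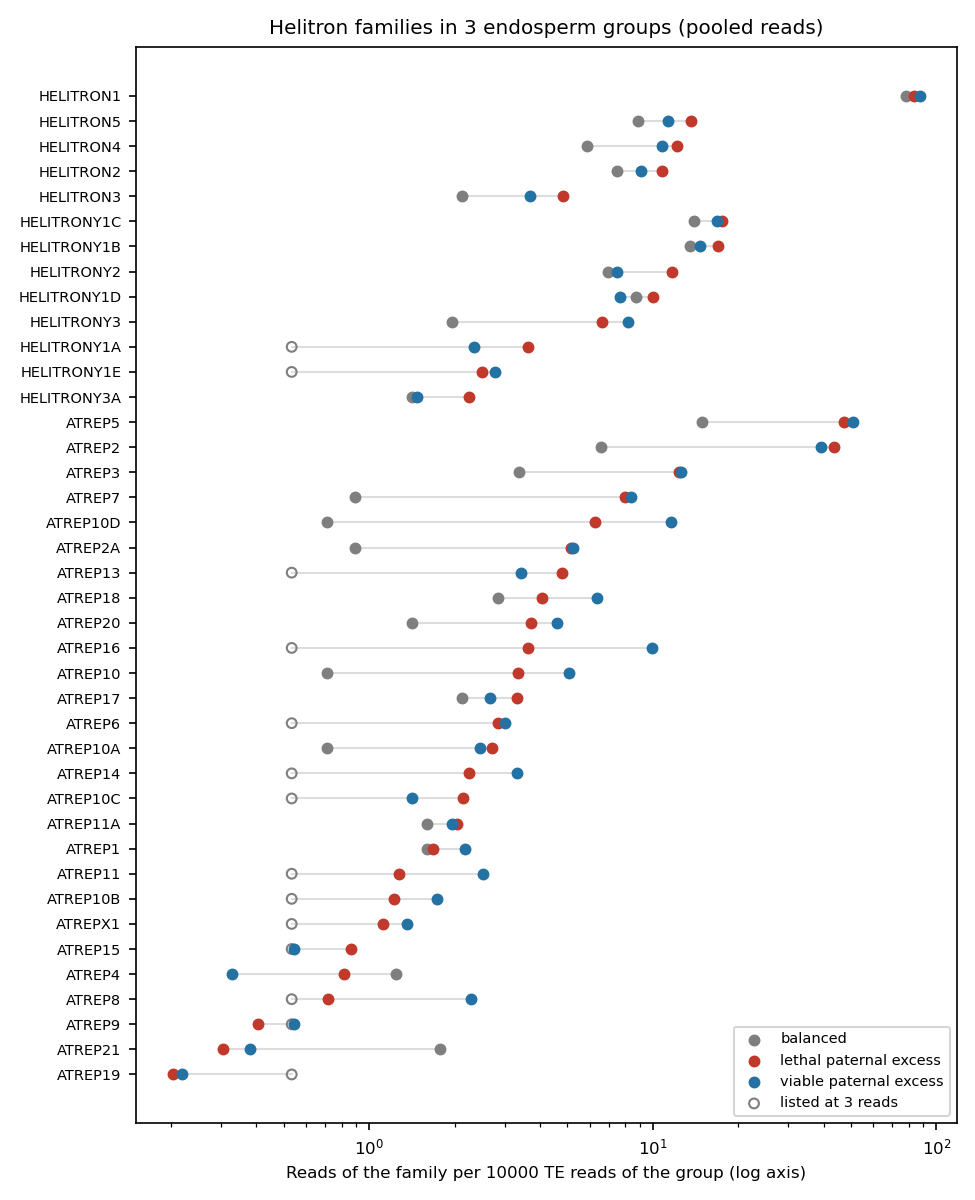
Reads of each of the 40 Helitron families per 10000 TE reads of its group on a log axis, with open circles for values listed at 3 reads. HELITRON1 stands at 78.2 to 87.3 in all groups, most ATREP families lie lower in balanced endosperm than in both paternal-excess groups, and 14 families are listed at 3 reads in balanced endosperm only.

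The other ATREP families were read less still. ATREP2A, ATREP6, ATREP10A, ATREP14 and ATREP20 had 3 to 8 reads in balanced endosperm and 44 to 101 in the paternal-excess groups, at 2.61 to 6.23 times the balanced level, with intervals above 1 in both comparisons. ATREP10B, ATREP10C, ATREP11 and ATREPX1 were listed at 3 in balanced endosperm and had 22 to 46 reads elsewhere, and at least 1 of their intervals against balanced included 1, although every ratio was above 2. ATREP18 had 16, 80 and 117 reads, 1.43 times (0.831 to 2.63) the balanced level in lethal and 2.24 times (1.32 to 4.05) in viable endosperm. ATREP1, ATREP11A and ATREP17, with 9 to 12 balanced reads, were 1.05 to 1.55 times the balanced level in both comparisons, and all 6 of their intervals included 1.

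ATREP4, ATREP9, ATREP15, ATREP19 and ATREP21 had 3 to 17 reads in any group, and ATREP8 had 3, 14 and 42. ATREP21 was the one member with more reads in the smaller balanced pool than in both other groups, 10 against 6 and 7, or 0.172 (0.0514 to 0.522) and 0.215 times (0.0693 to 0.624) the balanced level. ATREP19 had 3, 4 and 4 reads, 0.382 and 0.409 times the balanced level with intervals of 0.0646 to 2.61 and 0.0691 to 2.79. ATREP4 had 7, 16 and 6 reads, 0.655 times (0.255 to 1.88) the balanced level in lethal and 0.263 times (0.0729 to 0.913) in viable endosperm.

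Lethal endosperm was compared with balanced endosperm over the families with at least 20 reads in both groups together, 36 of 40 (ATREP8, ATREP9, ATREP19 and ATREP21 were below). At least a 2-fold higher share was found for 22 of the 36, and a 2-fold lower share for 0. Among all 333 families with enough reads, 33.3% were at least 2-fold higher and 8.11% at least 2-fold lower. The lethal pool was larger, so a family listed at 3 in balanced endosperm passed the minimum only through its lethal reads. It could then not be 2-fold lower, and the minimum set part of this split in advance. Such values were listed for 14 of the 40 members and 60 of all 375 families. With no minimum, 22 of the 40 members were 2-fold higher and 2 lower (29.6% and 12% of all families). The median log2 ratio was 1.23 over the Helitron families and 0.52 over all families. By kind, 17 of 23 ATREP, 3 of 8 HELITRONY and 2 of 5 HELITRON families were past 2-fold. HELITRON4 (2.08) lay just past that line and HELITRONY2 (1.68) just under it. The authors' deposited table gave a q under 0.05 and a higher level to 21 of the 36, against 32.1% of all families, and a lower level to 0, against 14.4%. Among the members below 20 reads, the authors' deposited table called ATREP21 lower (q = 0.0015). The lowest q of that table among members belonged to ATREP2 (1.86e-48) and ATREP5 (7.04e-29). ATREP16 and HELITRONY1A, each with 3 balanced and 71 lethal reads, shared a q of 0.000176 in it. The q of TE families, here and below, thus cannot be taken to measure spread between replicates.

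Viable endosperm was compared with the same balanced values over 35 families (ATREP4, ATREP9, ATREP15, ATREP19 and ATREP21 were below 20 reads). Again 22 were at least 2-fold higher and 0 at least 2-fold lower, against 28.8% and 11.2% of all 313 families. The minimum set part of this split in the same way. Without it 22 of the 40 members were higher and 3 lower (24% and 17.3% of all families). The median log2 ratio was 1.71, against 0.30 over all families. By kind these were 19 of 22 ATREP, 3 of 8 HELITRONY and 0 of 5 HELITRON families, and ATREP18 (2.24) and HELITRON4 (1.85) lay on either side of the line. The authors' deposited table gave 21 of the 35 a higher level at q under 0.05, against 34.2% of all families, and 0 a lower one, against 13.4%. ATREP21, below 20 reads, was again called lower in the authors' deposited table (q = 0.0086).

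The balanced values are shared, so the likeness of the comparisons is no separate evidence. Of 34 families with enough reads in both, 20 were at least 2-fold higher in both, 2 in lethal only (HELITRON3 and HELITRON4), 1 in viable only (ATREP18) and 11 in neither. This overlap was not counted over all families, so it cannot be read as a trait of the Helitron families. Taken singly, 33.3% of all families with enough reads were at least 2-fold higher in lethal and 28.8% in viable endosperm. Members listed at 3 in balanced endosperm, where that value may stand for fewer reads, were 10 of the 22 past 2-fold in lethal and 11 of the 22 in viable endosperm. Among families listed above 3 in both groups compared, 12 of 25 members were past 2-fold in lethal endosperm (all families 29.5%) and 11 of 24 in viable endosperm (all families 23.8%), with medians of 0.75 and 0.84 against 0.41 and 0.21 over all such families.

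**Figure D3:**
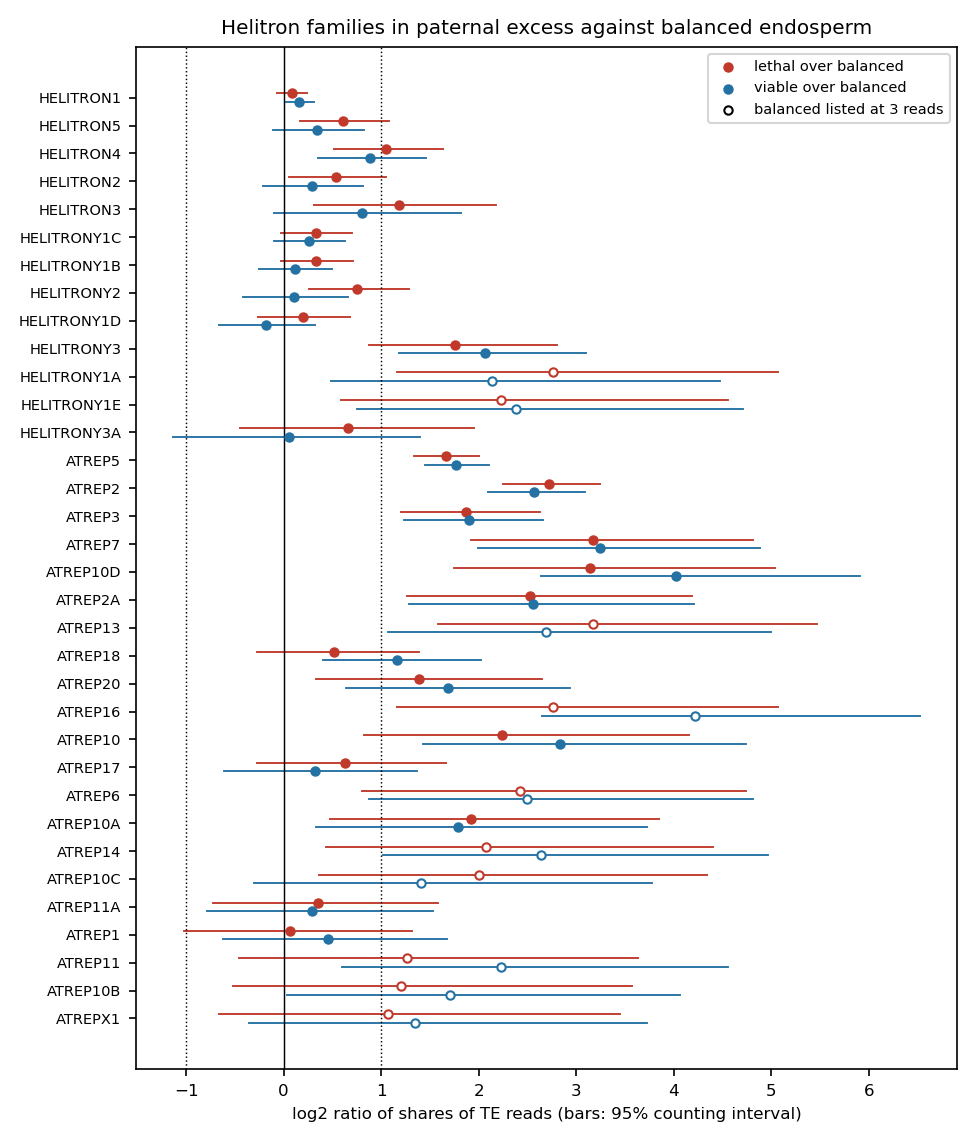
Log2 ratio of the share of TE reads in lethal (red) and viable (blue) over balanced endosperm for the families with at least 20 reads; bars are 95% counting intervals, dotted lines mark 2-fold and open points had 3 balanced reads. Points for ATREP families lie mostly right of the 2-fold line with wide bars, and HELITRON1 lies at 0.09 and 0.16 with narrow ones.

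Viable and lethal endosperm differed by the father's nrpd1 genotype, and the Helitron families were compared between them over 37 families (ATREP9, ATREP19 and ATREP21 were below 20 reads). At least 2-fold higher in viable endosperm were ATREP16 and ATREP8, and at least 2-fold lower was ATREP4. That is 2 and 1 of 37, against 5.26% and 10.8% of all 342 families, and the median log2 ratio was 0.02, against -0.23 over all families. On the scale of TE reads 19 of the 37 ratios lay above equality and 18 below it, against 118 and 224 of all 342 families. Of the 37 intervals, 6 lay above equality, 6 below it and 25 included it. Intervals were not counted over all families, so their split has no background to be read against.

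ATREP16, with 71 reads in lethal and 183 in viable endosperm, was 2.76 times the lethal level (2.09 to 3.68). ATREP8 had 14 and 42 reads (3.21 times, 1.72 to 6.36), and ATREP11, just under 2-fold, 25 and 46 reads (1.97 times, 1.18 to 3.34). ATREP10D had 123 and 212 reads (1.84 times, 1.47 to 2.32), ATREP18 80 and 117 (1.56 times, 1.17 to 2.11) and ATREP10 66 and 93 (1.51 times, 1.09 to 2.10). These 6, all ATREP families, were the ones whose intervals lay above equality.

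HELITRONY2 was lower in viable endosperm, 7.46 against 11.7 per 10000, which is 0.640 times the lethal level (0.514 to 0.794). HELITRONY1A was 0.648 times the lethal level (0.433 to 0.959) and HELITRONY1D 0.769 times (0.615 to 0.960). HELITRON5 (0.829), ATREP2 (0.903) and ATREP13 (0.717) had intervals that ended just below 1, at 0.998, 0.998 and 0.997, and ATREP2 turned to the higher side when scaled by all reads or by allele reads of genes. ATREP4, past 2-fold in ratio with 16 reads against 6, had an interval of 0.129 to 1.08. HELITRONY3A (0.656, 0.391 to 1.08) and ATREP15 (0.629, 0.257 to 1.46) also lay low with intervals that included 1.

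Summed by kind, ATREP families were 1.11 times the lethal level in viable endosperm (1.06 to 1.17), HELITRONY families 0.861 times (0.795 to 0.932) and HELITRON1 to HELITRON5 0.981 times (0.926 to 1.04). Scaled by all reads of the tables, or by allele reads of genes, these became 1.24 and 1.27 for ATREP, 0.959 and 0.980 for HELITRONY, and 1.09 and 1.12 for HELITRON1 to HELITRON5, whose direction thus turned. Those scalings raised every viable over lethal ratio by 0.16 and 0.19 on the log2 scale. The authors' deposited table gave a higher level in viable endosperm at q under 0.05 to 10 of the 37 (all families 20.8%) and a lower one to 1, HELITRONY2 (all families 14.6%). Its log2 ratios are centred by all reads of the table and not by TE reads, so its q for HELITRON1 (4.62e-05) goes with a log2 ratio of 0.23, where the ratio of TE shares was 0.07.

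**Figure D4:**
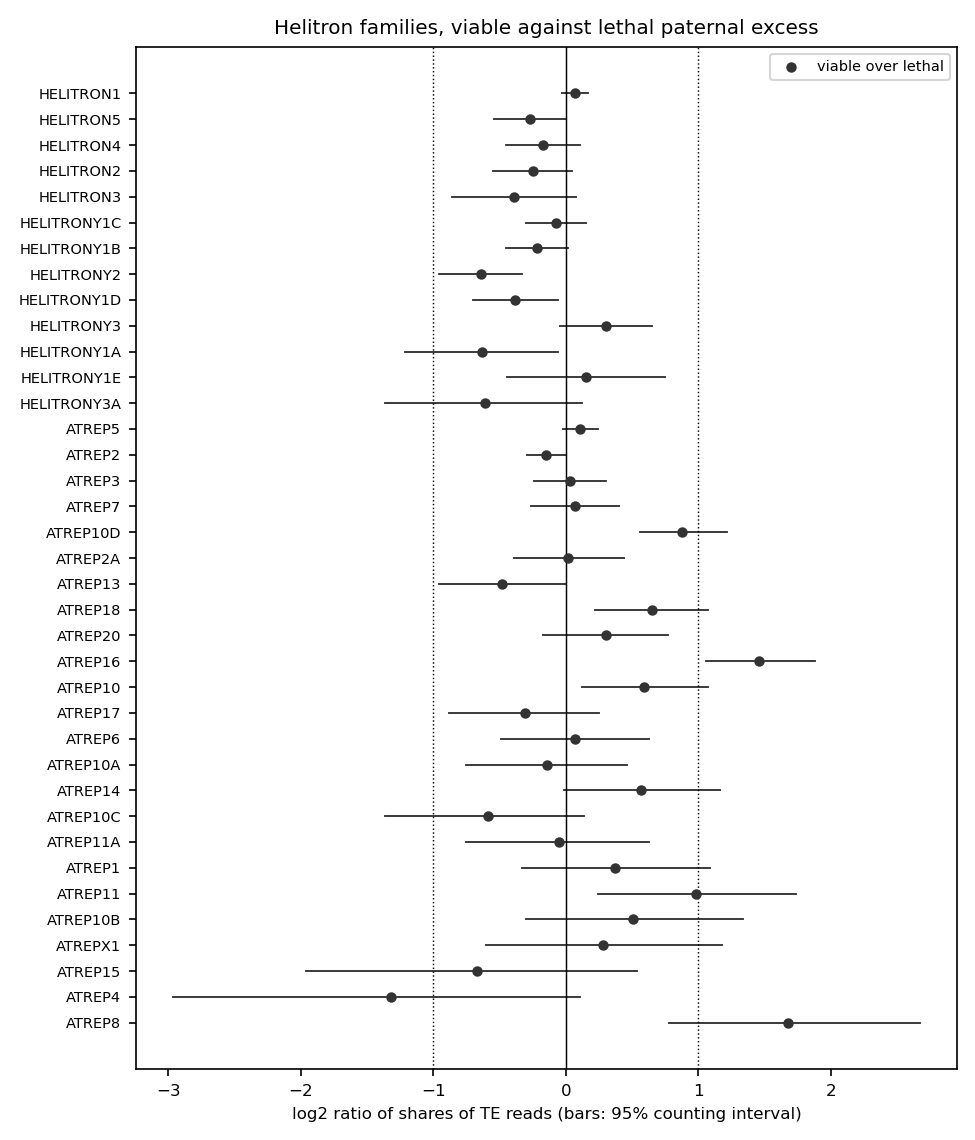
Log2 ratio of the share of TE reads in viable over lethal endosperm for the 37 families with at least 20 reads; bars are 95% counting intervals and dotted lines mark 2-fold. Most bars cross 0, ATREP16 lies at 1.46 with its whole bar beyond the 2-fold line, and HELITRONY2 lies at -0.64.

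Families that share a name stem may share reads, since near-identical subfamilies can divide the same fragments and the sources used here give no counting rule. Summed over the 5 ATREP10 families (a sum chosen after the values had been seen), reads were 18 (balanced), 308 (lethal) and 408 (viable), 4.90 (3.05 to 8.38) and 6.95 times (4.34 to 11.8) the balanced level. Viable was 1.42 times lethal (1.22 to 1.65) for that sum. Taken singly, ATREP10A (0.908 times, 0.597 to 1.38) and ATREP10C (0.662 times, 0.39 to 1.11) were lower in viable endosperm, with intervals that included 1. ATREP2 with ATREP2A had 42, 953 and 815 reads, 6.5 and 5.95 times the balanced level. The 5 HELITRONY1 families together had 210, 996 and 812 reads, only 1.36 (1.17 to 1.58) and 1.19 times (1.02 to 1.39) the balanced level, a sum carried by HELITRONY1B, HELITRONY1C and HELITRONY1D and not by the thinly read HELITRONY1A and HELITRONY1E.

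Genes that silence transposons were measured in the same RNA, and 21 of them were followed. NRPD1 (AT1G63020) was read at 34.2, 133 and 34.3 CPM (reads scaled by library size) in lethal replicates 1 to 3 and at 52.3, 96.0 and 23.6 CPM in viable replicates 1 to 3. The groups overlapped, and the paternal mutation was not visible as a loss of NRPD1 reads in total, which include the maternal allele. The authors' deposited table called 5 of the 21 genes higher and 7 lower in lethal than in balanced endosperm at q under 0.05, against 17.5% and 16.6% of 23552 genes tested. In viable endosperm it called 5 higher and 4 lower, against 14.2% and 12.9% of 23073 genes. The other 9 genes of the list were called in neither comparison.

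The 5 genes called higher were the same in both comparisons, which share the balanced values, and 3 of them maintain methylation. The authors' deposited table listed CMT3 (AT1G69770), the CHG methyltransferase, at 4.34 (balanced), 23.4 (lethal) and 20.7 FPKM (viable), 5.39- and 4.76-fold higher (q = 0.00035 and 0.00048). By the authors' deposited table MET1 (AT5G49160), which maintains CG methylation, was 2.51- and 2.62-fold higher, and DDM1 (AT5G66750), a chromatin remodeller, 1.96- and 2.17-fold higher. The other 2 in the authors' deposited table were HEN1 (AT4G20910), which methylates small RNAs, at 3.31, 8.70 and 9.47 FPKM in the same order, and NRPD1 at 2.33, 6.96 and 5.71 FPKM.

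Of the 13 listed genes of the RNA-directed pathway (a split not planned beforehand), 6 were called lower in lethal endosperm and 2 higher (NRPD1 and HEN1). Among all 23552 genes tested, 16.6% were called lower and 17.5% higher. The other 5 of the 13 were not called (NRPE1, DCL3, AGO6, DRD1 and RDM1). In viable endosperm 3 of the 13 were called lower (NRPD2A, CLSY1 and DRM2) and the same 2 higher, against 12.9% and 14.2% of 23073 genes. The authors' deposited table listed the de novo methyltransferase DRM2 (AT5G14620) at 26.8 FPKM (balanced), 7.32 (lethal) and 12.6 (viable) (3.66- and 2.12-fold lower). The authors' deposited table listed AGO4 (AT2G27040), an argonaute that binds the small RNAs, at 88.5, 30.5 and 48.9 FPKM, called in lethal endosperm (q = 0.00651) and not in viable (q = 0.153). RDR2 (AT4G11130), the RNA-dependent RNA polymerase that works with polymerase IV, was at 6.81, 1.37 and 4.04 FPKM in that deposited table of the authors, also called in lethal endosperm (q = 0.00035) and not in viable (q = 0.108). By the authors' deposited table NRPD2A (AT3G23780), a subunit of polymerases IV and V, was 3.63- and 2.33-fold lower, and CLSY1 (AT3G42670), a remodeller that acts with polymerase IV, 3.13- and 2.19-fold lower. SHH1 (AT1G15215), which recruits polymerase IV, was put 3.87-fold lower in lethal endosperm by the authors' deposited table (q = 0.0444). The authors' deposited table also called ROS1 (AT2G36490), a DNA demethylase, lower in both, at 29.8, 3.14 and 8.59 FPKM (9.50- and 3.47-fold lower). Whether any of these levels bears on the Helitron reads was not tested.

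Between viable and lethal endosperm the authors' deposited table called ROS1 (2.77-fold higher in viable, q = 0.0128) and RDR2 (2.99-fold, q = 0.0219), against 1.74% of 24437 genes called higher, and none of the 21 lower (0.769% of genes). With single replicates left unpaired, edgeR's quasi-likelihood test with Benjamini-Hochberg adjustment called 0 of the 19 list genes it could test and 0 of all 12674 (0%). At an unadjusted p under 0.05 it found 1 and 865, and DESeq2 called 192 of 20008 genes, 0 of them from the list. ROS1 stood at 7.59, 16.8 and 4.40 CPM in lethal and 29.0, 46.4 and 21.8 CPM in viable replicates, groups that did not overlap (log2 difference 1.75, SE 0.54, edgeR adjusted p = 0.491). With the replicate number as a block the difference was 1.88 and edgeR's adjusted p = 0.0443, and the block raised the calls over all genes to 117. RDR2 stood at 2.53, 6.24 and 4.70 CPM in lethal and 12.4, 18.4 and 4.29 CPM in viable replicates, which overlapped (log2 difference 1.38, SE 0.62, edgeR adjusted p = 0.732).

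**Figure D5:**
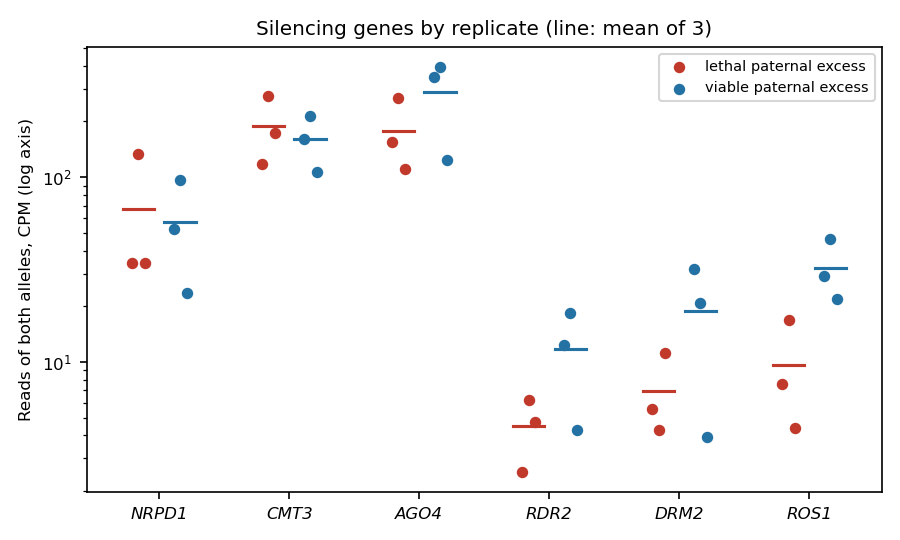
Reads of both alleles in CPM (log axis) of 6 of the genes called by the authors in at least 1 comparison, for the 3 lethal and 3 viable replicates; lines are means. ROS1 values do not overlap between groups (4.40 to 16.8 against 21.8 to 46.4 CPM), and those of the other 5 genes do.

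Markers of the tissues a dissection could hold differed between the groups beside all of these values. The authors' deposited table listed the summed level of 6 endosperm markers at 61.0, 545 and 416 FPKM (balanced, lethal and viable). The authors' deposited table had PHE1 (AT1G65330), a MADS-box factor of endosperm, at 1.5, 429 and 340 FPKM. PHE1 carried most of the lethal and viable sums, and without it the sums were 59.6, 116 and 75.8 FPKM by the authors' deposited table. The markers did not all move one way. PHE1, FWA, FIS2, MEA and AGL62 were listed higher than balanced in both other groups, though not all with a q under 0.05. ZOU (AT1G49770), a factor needed for endosperm breakdown, made up most of the balanced sum. The authors' deposited table had ZOU lower in lethal endosperm, 57.8 against 16.4 FPKM (q = 0.00035), with 31.1 FPKM in viable (q = 0.0591). Without ZOU the sums of the other 5 were 3.26, 529 and 385 FPKM by the authors' deposited table. In balanced endosperm 3 of the 6 stood at 1 FPKM or more, in lethal 6 and in viable 4, and the authors' deposited table had MEA at 0.0395 FPKM in balanced endosperm. Of the embryo markers 5, 2 and 3 of 6 reached 1 FPKM, with sums of 49.2, 67.5 and 37.6 FPKM by the authors' deposited table, and DRN was at or near 0 in each group (0.0308, 0.0263 and 0 FPKM). ATML1 (2.64, 63.2 and 23.7 FPKM) carried most of the lethal and viable sums, and without it the authors' deposited table gave sums of 46.6, 4.27 and 13.9 FPKM. The authors' deposited table listed WOX2, WOX8, STM and CUC1 lower than balanced in both other groups, CUC1 at 32.3, 0.702 and 6.07 FPKM. Of the seed coat markers 5 of 6 reached 1 FPKM in every group and TT12 was near 0, with sums of 95.4, 109 and 80.9 FPKM by the authors' deposited table. The part of tissue makeup and stage in the differences of Helitron reads from balanced endosperm was not tested.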

How the data were processed

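Endosperm RNA was sequenced from 3 lethal and 3 viable replicates, and balanced values were pooled by the authors from 5 replicates of other series. Per the submitters' processing notes, the TAIR10 genome, Bowtie, TopHat, Cuffdiff, FastQC and Trim Galore were used; the sources used here give no versions, roles or settings. The deposited TE tables hold each family's read count pooled by group, a log2 ratio centred by the authors, and the authors' q-value, for which the sources used here give no test or annotation. The authors' log2 ratios were given the sign of paternal excess over balanced and of viable over lethal. The deposited gene tables hold 1 FPKM value per group, scaled separately in each table, and a q-value. The deposited allele tables hold counts per gene and replicate, 5692640 to 7983669 in genes per library, and 10 columns of single balanced replicates were not used. Rows naming no gene held 7.25% to 9.66% of reads per library (5.96% in balanced) and were left out. Nothing states that replicates came from separate plants, so p-values cover the spread between these libraries, which may be technical.

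Each family's reads were divided by the TE reads of its group, without the row of unmapped reads. Ratios carry exact (Clopper-Pearson based) 95% intervals, and were counted at 20 reads or more over both groups and 2-fold. No deposited value was 0, and the main ratios used no floor. Where 3 reads were taken off every value as another setting, results below 3 were set to 3 for the family ratios. Families described in full were all HELITRON names, the 10 with the most reads, and the 5 highest and 5 lowest ratios per comparison, and the others are added by ranges. Members and lists were chosen with earlier results of these data known. Genes were compared by edgeR 4.0.16 (R 4.3.3) quasi-likelihood F tests on Ler plus Col counts, two-sided, with TMM scaling, filterByExpr and Benjamini-Hochberg adjustment, DRD1 and SUVH4 having too few allele reads. Other settings tried were a block on replicate number, no filter on counts, DESeq2 1.42.0, and leaving out each replicate. Deviations of same-numbered replicates from their group means correlated at 0.114, 0.475 and 0.432 over 12674 genes, all above 0.1. Lethal replicate 2 with viable replicate 1 gave 0.155, so pairing by number is not settled. The main edgeR test left the numbers out, and only the block treated them as pairs. All 21 silencing genes matched the RefSeq gene table (TAIR10.1), used for names, in which 0 entries name a helitron, so no Helitron gene was followed. Both calculations were tested on simulated data. The simulated families had more reads than in balanced endosperm, and changes were set in well-read genes only. Thinly read families and genes were therefore not covered. Figures used matplotlib 3.10.9.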

Additional observations from a re-analysis of the deposited data

How the results depend on the processing

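No result turned direction while past its threshold. Scaling by allele reads of genes, which raised lethal and viable over balanced ratios by 0.87 and 1.05 on the log2 scale, gave total Helitron ratios of 3.33 and 3.86 over balanced and 1.16 for viable over lethal, 33 families 2-fold higher in lethal than balanced (67% of all families), 34 in viable than balanced (62.9%), and 4 in viable than lethal (6.43%). With all reads as the denominator the ratios were 1.76 for lethal over balanced, 1.99 for viable over balanced and 1.13 for viable over lethal. Without HELITRON1 they were 2.33 and 2.34 over balanced, and with 3 reads taken off every value (chosen after seeing the data) 1.98 and 2.02. Without families listed at 3 reads (also chosen after seeing the data) 12 families were 2-fold higher in lethal (29.5% of all) and 11 in viable than balanced endosperm (23.8%). With no minimum of reads 2 were lower in lethal (12% of all families) and 3 in viable endosperm (17.3%), and at 1.5-fold 1 was lower in lethal endosperm (14.1%). For viable against lethal, the centred ratio of the authors gave 4 higher and 1 lower (80% of calls higher, against 66.7%) where all families had 6.14% and 7.02%. At 1.5-fold 6 were higher and 6 lower, against 9.65% and 26.6% of all families, and with a minimum of 50 reads 0 were lower, against 8.63%. With 1 read added to both groups, 19 families were 2-fold higher in lethal (30.6% of all) and 21 in viable than balanced endosperm (25.9%). Among the families described in full, HELITRON4 and ATREP11 dropped below 2-fold in lethal over balanced. The first did so with the centred ratio and the second with 1 read added (log2 0.90). The cause of these moves was not tested.

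In the gene test the replicate block called 1 silencing gene, ROS1, and 117 of all genes, DESeq2 192 and no count filter 81, and leaving out any 1 replicate gave 0 calls for the list and for all genes. The block changed no other call of the list. At q under 0.01 the authors' deposited table called 3 silencing genes higher and 6 lower in lethal than balanced endosperm (12.4% and 11.7% of all genes), and 4 higher and 2 lower in viable (9.85% and 8.31%). Depth limits the thinly read families most, since 14 members had 3 reads in balanced endosperm.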
